A study of Mus musculus with 7 samples.

Results

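The genes described here are the tissue inhibitors of metalloproteases Timp1, Timp2, Timp3 and Timp4 and the matrix metalloproteases Mmp2, Mmp9, Mmp14 and Mmp15, in mouse glioma cells that differ in the receptor-type tyrosine phosphatase gene Ptprd. They were chosen by symbol, through probe sets annotated to a single gene. Of the 8 genes, 7 had such a probe set, 19 probe sets in all, out of 12393 named genes on the array. Mmp15 was not analysed here. Each gene was represented by its brightest probe set, the probe set with the highest mean over all arrays, and its other probe sets are given beside it.

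RNA from tumour cells was hybridised on 7 Affymetrix expression arrays, which held 3 null (Ptprd-/-p16-/-), 2 heterozygous (Ptprd+/-p16-/-) and 2 wild-type (Ptprd+/+p16-/-) samples. All mice are labelled p16-/-, for a gene whose product restrains the cell cycle, and the strains C57/BL6 and FVB/N were mixed in all of them. Every tumour was induced by brain injection of RCAS PDGFB GFP on days 1 to 3 after birth. This avian viral vector carries a growth factor and a green fluorescent marker and enters only cells with the receptor tv-A, here produced under the Nestin promoter. Tumours were collected at symptoms or at 12 weeks after injection, and the age of each tumour is not given. Fluorescent cells that excluded the dye DAPI were sorted. The labels speak of biological replicates and do not say whether a sample came from a single mouse, so p-values measure the spread between these samples.

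Matrix metalloproteases are zinc-dependent enzymes that cut collagens and other proteins of the extracellular matrix, and they are made as inactive precursors. The 4 TIMP proteins bind the active site of these enzymes and block it. Mmp2 and Mmp9 encode the gelatinases A and B, which cut denatured collagen and basement membrane collagen. Mmp14 and Mmp15 encode enzymes anchored in the cell membrane, and the Mmp14 product activates the Mmp2 precursor together with the Timp2 protein. In the brain these proteins take part in remodelling of the perivascular matrix and in glioma invasion.

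Calls at an adjusted p under 0.05 in limma were limited to Timp1 and Timp4, and those of Timp4 lay near that threshold. A member without a call is not thereby shown to be unchanged. Timp1 and Timp4 differed in heterozygous cells from both other genotypes, in opposite directions, and Timp1 was higher there. Because the results turn on this pair, their upstream sequences are shown from RefSeq (GRCm38.p6), 5′ to 3′ on the strand of each gene. These are the 250 bases before the annotated start, chrX:20869916-20870165 on the plus strand for Timp1 and chr6:115252206-115252455 on the minus strand for Timp4. Capitals mark a match to GGAAGT, a core bound by ETS factors, or to its reverse complement ACTTCC.

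Timp1: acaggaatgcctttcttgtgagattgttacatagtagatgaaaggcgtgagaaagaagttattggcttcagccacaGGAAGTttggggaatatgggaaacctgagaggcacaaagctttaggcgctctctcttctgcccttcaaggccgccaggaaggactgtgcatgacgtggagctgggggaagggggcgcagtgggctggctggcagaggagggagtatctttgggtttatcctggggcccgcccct
Timp4: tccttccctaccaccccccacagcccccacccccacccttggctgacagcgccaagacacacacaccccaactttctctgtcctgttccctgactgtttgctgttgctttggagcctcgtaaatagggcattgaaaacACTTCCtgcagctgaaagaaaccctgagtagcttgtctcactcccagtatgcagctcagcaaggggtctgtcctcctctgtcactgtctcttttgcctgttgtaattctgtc

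The search covered both strands of windows of 300 bases, which run to 50 bases past the start. It used the AP-1 sequences TGAGTCA and TGAGTAA, the CRE TGACGTCA, the STAT sequence TTCNNNGAA, the E-box CACGTG and GGAAGT. A further match in Timp1 lay after the start, on the plus strand at bases 27 to 33 counted from the start as base 1. It is shown in capitals within 30 bases at chrX:20870184-20870213.

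Timp1 AP-1 variant: tgggtggaTGAGTAAtgcgtccaggaagcc

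Among 32851 windows of this length, 2.68% held TGAGTAA and 23.8% held GGAAGT. The TGAGTCA, TGACGTCA, TTCNNNGAA and CACGTG sequences occurred in 5.20%, 1.79%, 8.30% and 7.15% of windows, and in neither the Timp1 nor the Timp4 window. The windows of Timp2, Timp3 and Mmp14 held 0 matches to the 6 sequences. A match describes the letters of the window and is not a binding site, and a missing match says nothing about a factor.

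The genes also share a position that the choice did not use. By RefSeq, Timp1 lies within the span of the synapsin gene Syn1, Timp4 within Syn2 and Timp3 within Syn3. Synapsins are proteins of synaptic vesicles. Timp1 and Syn1 lie on opposite strands, as do Timp4 and Syn2.

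The values are log2 levels from RMA, which removes background, gives every array the same distribution of values and merges the probes of each set. Levels of different genes cannot be compared with each other, because each probe set has its own brightness. The targeted gene Ptprd had levels of 9.61, 8.95 and 9.93 in null, 9.42 and 9.57 in heterozygous and 10.86 and 10.89 in wild-type cells. It thus lay lower in all Ptprd-deficient samples than in wild type, and null and heterozygous overlapped. The probe set of Cdkn2a, the gene that encodes p16, was at 5.45 to 6.77, above the 30th percentile of probe sets on all 7 arrays. Whether the probe sets of either gene lie in the deleted part is not known here. The heterozygous arrays stood apart, with correlations of 0.976 to 0.987 with the other arrays across probe sets, while null and wild-type arrays correlated at 0.990 to 0.995 among themselves. In heterozygous replicate 1 and null replicate 1, Xist, the transcript of the inactive X chromosome, was present beside Y-linked transcripts, so calls are also given without these 2 arrays of mixed sex transcripts.

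Markers of oligodendrocyte progenitors and glioma cells, such as Olig2, Sox10 and Pdgfra, had a mean log2 level between 11.08 and 11.56 on every array, and 9 of the 9 passed the filter. Markers of microglia and macrophages moved with genotype. Of 18 on the array, 16 passed the filter on dim genes, and 12 of these rose in heterozygous against wild-type cells and 0 fell. Of all 9243 genes tested, 388 rose and 550 fell there. The summed linear level of the 18 markers was 977 to 1477 in null, 2450 to 3150 in heterozygous and 862 to 1198 in wild-type cells. Ptprc, the leukocyte antigen CD45, had levels of 5.88 and 5.62 in heterozygous against 4.32 and 4.38 in wild-type cells. Ptprc, Cd68 and Cd14 passed the filter through the heterozygous arrays alone, so a difference was built into their passing. The integrin gene Itgam was below the 30th percentile on every array.

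The comparisons used limma on 9243 genes. A gene was tested where at least 2 arrays had it brighter than their 30th percentile of probe sets (4.82 to 4.95 on the log2 scale), and a call means a Benjamini-Hochberg adjusted p under 0.05 over all genes tested. Of the 7 measured members, 6 were tested, and Mmp9 lay below this level on all 7 arrays. Timp1 passed through the 2 heterozygous arrays alone, so a difference was built into its passing. The other 5 tested members passed on all 7 arrays.

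In heterozygous against wild-type cells 1 member rose and 1 fell of 6 tested, where 10.1% of all genes tested were called. In null against wild-type cells 0 of 6 were called, and 0 had an unadjusted p under 0.05. There limma called 0% of all genes. Of the 9243 genes, 475 had an unadjusted p under 0.05, near the share that a threshold of 0.05 passes where no gene differs. The targeted gene Ptprd was itself not called there, with a log2 difference of -1.37 (adjusted p = 0.882). In heterozygous against wild-type cells it also differed by -1.37, and was called (adjusted p = 0.0311). The lack of calls in null against wild-type cells thus does not show that the members were unchanged. In null against heterozygous cells 1 member was higher and 1 lower, against 8.96% of all genes, and in the F test for any difference among the 3 genotypes 2 of 6 were called, against 5.65%. With so few members these shares do not set the group apart from other genes. The null comparisons share samples with each other and with the heterozygous comparison, so the calls are not independent.

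**Figure D1:**
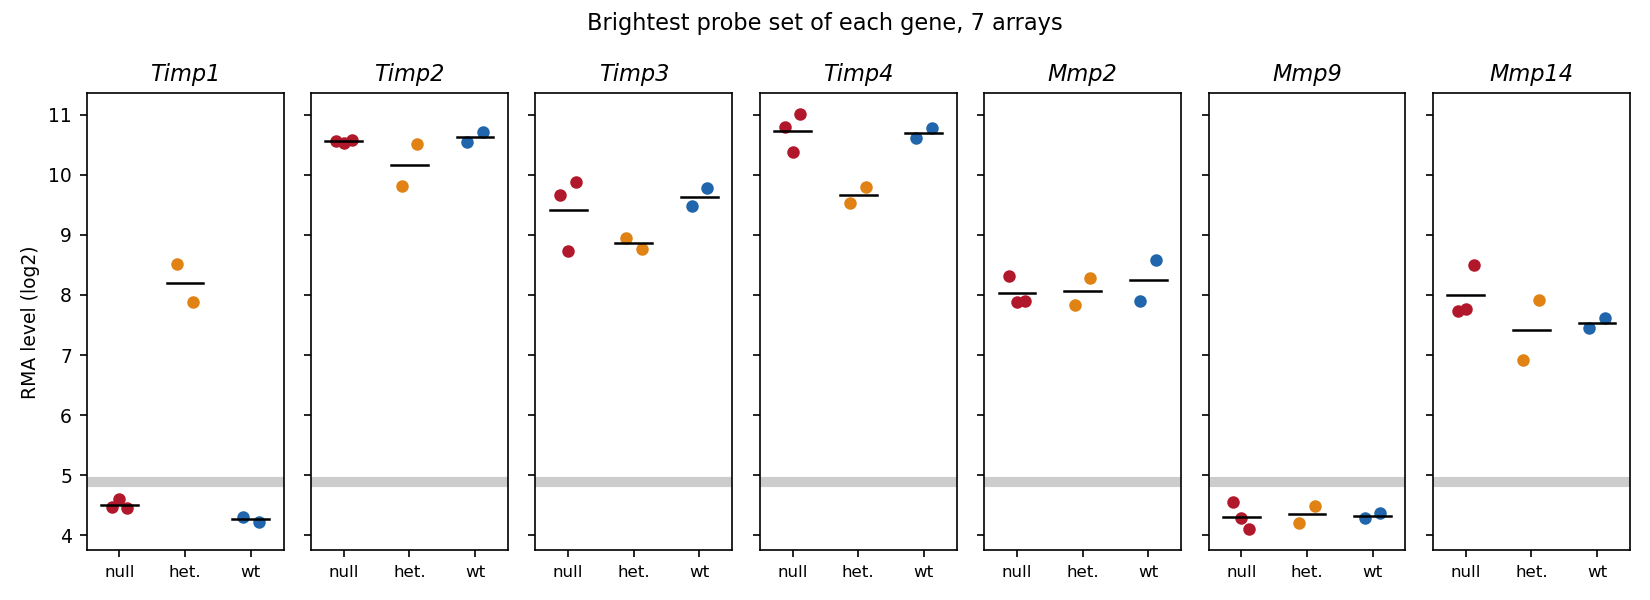
Log2 level (y axis) of the brightest probe set of 7 genes in null, heterozygous (het.) and wild-type (wt) samples. Points are arrays, bars are group means, and the grey band spans the 30th percentile of the 7 arrays. Timp1 lies above the band in the 2 heterozygous samples only (8.51 and 7.88), and Mmp9 lies below it everywhere.

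Timp1, the inducible member of the inhibitor family, had levels of 4.47, 4.60 and 4.44 in null, 8.51 and 7.88 in heterozygous and 4.31 and 4.22 in wild-type cells. Heterozygous samples lay far above all others, and all null and wild-type samples were dim. Within an array, Timp1 stood at the 24.0th to 26.8th percentile of probe sets in null cells, at the 74.2nd and 65.9th in heterozygous cells and at the 23.2nd and 22.6th in wild-type cells. Timp1 has 1 probe set, so no other probe set of the gene was at hand to compare.

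Timp1 rose 15.3-fold in heterozygous against wild-type cells (log2 difference 3.93 ± 0.20, SE, adjusted p = 0.000895). Null against heterozygous cells gave a difference of -3.69 ± 0.18 (adjusted p = 0.000739). Both folds are taken against a dim level, where a probe set hardly responds to RNA, and their exact size is uncertain. Null and wild-type cells differed by 0.24 (95% interval -0.19 to 0.67, adjusted p = 0.894). All 3 null samples lay above both wild-type samples, at levels that were dim in either group. Without the 2 arrays of mixed sex transcripts, the difference of heterozygous and wild-type cells was 3.62 with an adjusted p of 0.0591. That of null and heterozygous cells was then -3.36 (adjusted p = 0.0595), and each fit rested on 1 heterozygous array. The macrophage markers given above were higher in the same heterozygous arrays as Timp1. The mean log2 level of 9 astrocyte markers was also higher there, at 8.60 to 8.84, against 7.96 to 8.32 in null and 7.99 to 8.14 in wild-type cells. Their summed linear level was not, at 9136 to 11077 in null, 7816 to 8972 in heterozygous and 8279 to 9718 in wild-type cells. The part of either list in the Timp1 result was not tested.

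Timp4, the inhibitor with the most restricted tissue distribution, found in brain and heart, went the other way. Its levels were 10.79, 10.38 and 11.01 in null, 9.54 and 9.80 in heterozygous and 10.62 and 10.78 in wild-type cells. The 2 heterozygous samples were the lowest of the 7, and null and wild-type samples overlapped. The second probe set had 9.01, 8.95 and 9.48 in null, 8.04 and 8.19 in heterozygous and 8.95 and 9.10 in wild-type cells, in the same arrangement.

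Timp4 fell 2.04-fold in heterozygous against wild-type cells (log2 difference -1.03 ± 0.21, SE, adjusted p = 0.0311), and null exceeded heterozygous cells by 1.06 ± 0.19 (adjusted p = 0.0262). The second probe set gave -0.91 and 1.03. Null and wild-type cells differed by 0.03 (95% interval -0.43 to 0.49). These calls were near the threshold. In heterozygous against wild-type cells the call ended on leaving out either wild-type array, either heterozygous array or null replicate 1, with adjusted p between 0.0523 and 0.174. In null against heterozygous cells it ended without any of these arrays or null replicate 3 (adjusted p 0.0503 to 0.176). With only the groups compared the adjusted p was 0.0515 in heterozygous against wild-type and 0.0525 in null against heterozygous cells, in an unmoderated model it was 0.124 in both, and with the replicate number as a block it was 0.0652 and 0.124. Without the 2 arrays of mixed sex transcripts the differences were -0.90 (adjusted p = 0.227) and 0.89 (adjusted p = 0.300). Where an omission leaves a genotype with 1 array, that array is assumed to vary like the other groups. Over all 7 single omissions the difference stayed between -1.16 and -0.90 in heterozygous against wild-type cells and between 0.92 and 1.23 in null against heterozygous cells.

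Markers of oligodendrocyte progenitors and glioma cells were lower in the same heterozygous arrays as Timp4. Of 9 tested, 4 fell and 1 rose in heterozygous against wild-type cells, and their summed linear level was 48840 to 51587 in null, 33204 to 41313 in heterozygous and 54355 to 54510 in wild-type cells. Of 9 astrocyte markers 3 rose and 1 fell. One of these 9, Aldh1l1, passed the filter through the heterozygous arrays alone. In such sorted samples fewer cells of a type and less RNA per cell cannot be told apart, and the part of these markers in the Timp4 result was not tested.

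**Figure D2:**
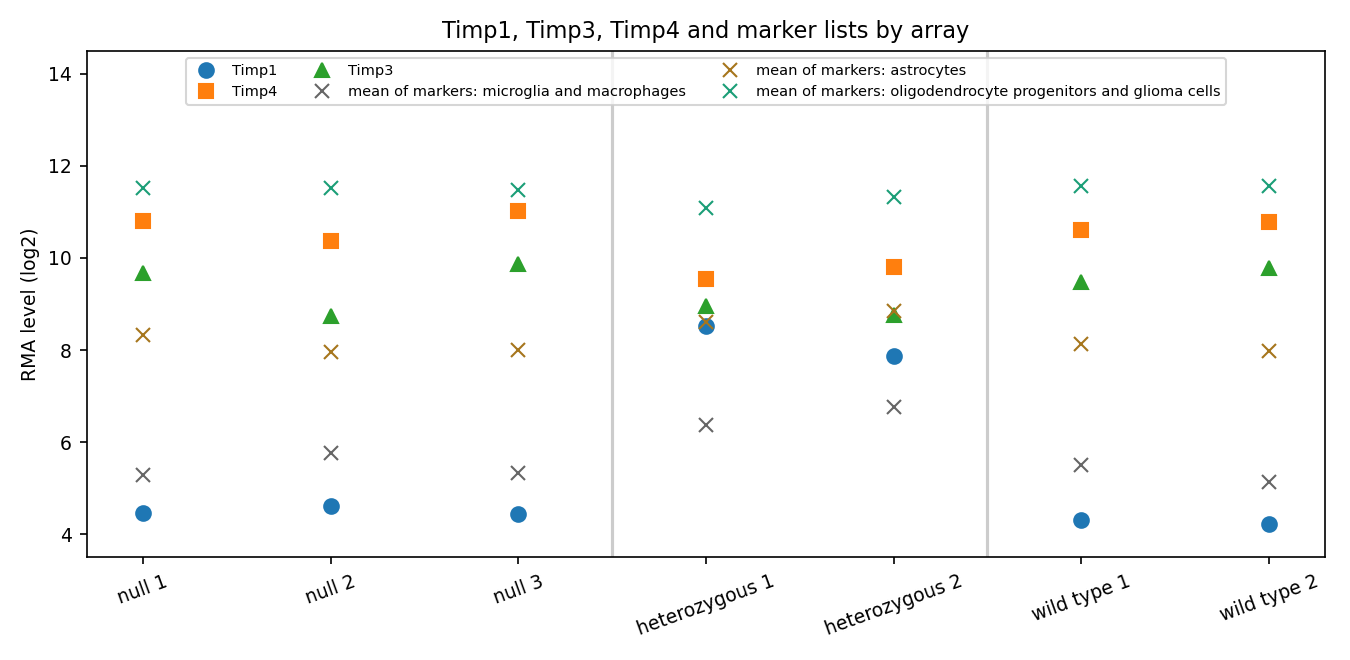
Log2 level (y axis) of Timp1, Timp3 and Timp4 and the mean log2 level of 3 marker lists on each array (x axis, with vertical lines between genotypes). In the 2 heterozygous arrays Timp1 and the macrophage and astrocyte markers lie higher, and Timp4 and the progenitor markers lie lower, than on the null and wild-type arrays.

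The synapsin genes around these inhibitors were examined after their overlap was seen. Syn2, which contains Timp4, had levels of 10.11, 9.71 and 9.90 in null, 9.40 and 9.21 in heterozygous and 10.05 and 10.23 in wild-type cells. It fell by 0.83 on the log2 scale in heterozygous against wild-type cells (adjusted p = 0.0256) and was higher by 0.60 in null against heterozygous cells (adjusted p = 0.0489). Its second probe set gave -0.61 and 0.53. Of 8 neuron markers on the array 6 were tested, and in heterozygous against wild-type cells 2 fell, Snap25 and Gad1, and 0 rose. Their summed linear level was 2427 to 2741 in null, 1442 to 1803 in heterozygous and 2512 to 2702 in wild-type cells, a sum that Snap25 and Gad1 dominate. The mean log2 level of the list was 6.28 to 6.78 in null, 6.40 to 6.44 in heterozygous and 6.42 to 6.67 in wild-type cells. By that measure the genotypes overlapped. Rbfox3 and Syt1 were below the 30th percentile everywhere, and the part of the neuron markers in the Syn2 result was not tested. Syn1, which contains Timp1, differed by -0.45 in heterozygous against wild-type cells (adjusted p = 0.0941), with a sign opposite to that of Timp1. Syn3, around Timp3, was below the 30th percentile on all 7 arrays.

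Timp3, the inhibitor that is held in the matrix and also blocks ADAM proteases, had levels of 9.67, 8.73 and 9.88 in null, 8.95 and 8.77 in heterozygous and 9.48 and 9.79 in wild-type cells. Null replicate 2 lay as low as the heterozygous samples, and the other null samples lay with wild type. Heterozygous and wild-type samples did not overlap, but the difference of -0.77 ± 0.35 (SE) did not pass (adjusted p = 0.192). The 3 other probe sets gave -0.69, -0.93 and -0.94, and in all 4 probe sets null replicate 2 was the lowest null sample. Null and heterozygous cells differed by 0.56 (95% interval -0.19 to 1.32), and null and wild-type cells by -0.21 (-0.96 to 0.55).

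Timp3 was called once null replicate 2 was left out, at -0.77 in heterozygous against wild-type cells (adjusted p = 0.0390) and 0.91 in null against heterozygous cells (adjusted p = 0.0304). The difference of null and wild-type cells was then 0.14. Null replicate 2 is in neither group of the first comparison, so -0.77 did not change and only the estimated spread did. Of the 19 alternatives, 1 gave a call of Timp3 in that comparison. Of 11 pericyte and fibroblast markers, 8 were lowest in null replicate 2 among the null samples and 2, Cspg4 and Pdgfra, were highest there. Among all 7 arrays, 2 of the 11 were lowest in null replicate 2. The pericyte gene Rgs5 was at 4.62 there, against 6.74 and 6.51 in the other null samples, 6.57 and 6.44 in heterozygous and 6.45 and 7.05 in wild-type samples. Dcn, which encodes the proteoglycan decorin, was at 5.24 in this sample, against 8.36 and 8.53 in the other null samples, 8.34 and 6.79 in heterozygous and 5.59 and 5.45 in wild-type samples, so that it lay near wild type. Of this list Col1a1 was below the 30th percentile everywhere. Of the 10 tested, 3 rose and 1 fell in heterozygous against wild-type cells. In null against heterozygous cells 0 were higher and 1 was lower. The mean log2 level of these markers was 6.66 to 7.49 in null, 7.22 to 7.70 in heterozygous and 6.77 to 6.90 in wild-type cells. Their summed linear level was 14810 to 15575 in null, 10358 to 12576 in heterozygous and 16402 to 16931 in wild-type cells, a sum that Pdgfra, also a progenitor marker, dominates. The part of these cells in the Timp3 values was not tested.

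Timp2, the constitutive inhibitor that serves in Mmp2 activation, had levels of 10.57, 10.54 and 10.58 in null, 9.81 and 10.52 in heterozygous and 10.55 and 10.71 in wild-type cells. In this brightest probe set heterozygous replicate 1 alone was low, and heterozygous replicate 2 lay just under the remaining samples. The differences were -0.47 in heterozygous against wild-type (95% interval -0.97 to 0.04, adjusted p = 0.195), 0.40 in null against heterozygous (adjusted p = 0.233) and -0.07 in null against wild-type cells (adjusted p = 0.968). Of its 6 probe sets, 5 were below 0 and 1 above 0 in heterozygous against wild-type cells, over a range of -0.47 to 0.10, and 1 of the 6 was below the 30th percentile on all arrays. Another had both heterozygous samples low, at 5.57 and 5.66, against 6.13, 5.94 and 6.27 in null and 5.94 and 6.12 in wild-type cells. In the probe set above 0 the groups overlapped. Without heterozygous replicate 2 the gene was called, at -0.82 against wild type (adjusted p = 0.0291) and at 0.75 in null against heterozygous cells (adjusted p = 0.0344). These values rest on heterozygous replicate 1, the low sample, alone, and the spread in that test comes from the null and wild-type samples, so the call has no replicate check among heterozygous samples.

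**Figure D3:**
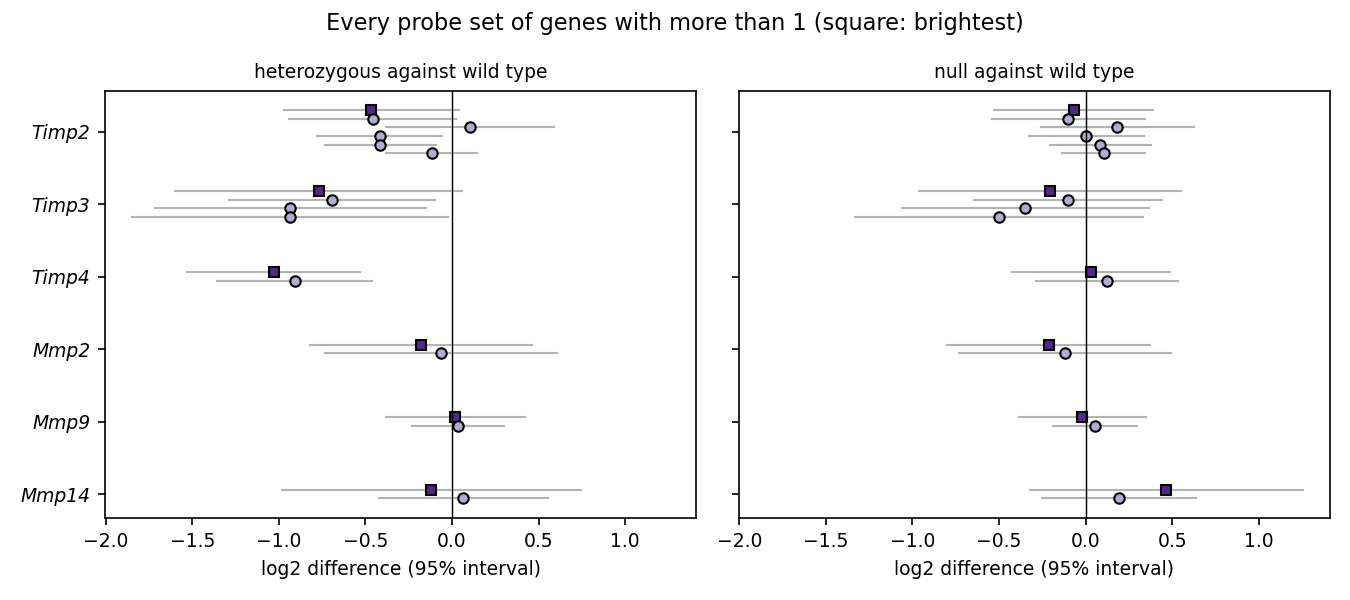
Log2 difference with its 95% interval (x axis) for every probe set of the 6 genes with more than 1, in heterozygous against wild-type (left) and null against wild-type cells (right), from the fit of every probe set, or of the genes tested for tested members (squares, brightest probe set). All 4 Timp3 and both Timp4 probe sets lie below 0 on the left, and 5 of 6 Timp2 probe sets do.

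The metalloproteases showed no call. Mmp2 had levels of 8.32, 7.88 and 7.90 in null, 7.84 and 8.29 in heterozygous and 7.90 and 8.59 in wild-type cells. The groups overlapped throughout, and the wild-type samples differed from each other by more than any 2 group means. Its differences were -0.18 in heterozygous against wild-type (95% interval -0.82 to 0.46), -0.21 in null against wild-type (-0.80 to 0.37) and -0.03 in null against heterozygous cells (-0.62 to 0.55). The second probe set gave -0.06, -0.12 and -0.06.

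Mmp14 had levels of 7.74, 7.76 and 8.50 in null, 6.92 and 7.91 in heterozygous and 7.44 and 7.62 in wild-type cells. All 3 null samples lay above both wild-type samples, and the heterozygous samples lay on either side of wild type. The difference of null and wild-type cells was 0.47 (95% interval -0.32 to 1.26, adjusted p = 0.894), that of null and heterozygous cells 0.58 (adjusted p = 0.299), and that of heterozygous and wild-type cells -0.12 (adjusted p = 0.864). Its second probe set was below the 30th percentile on all arrays, and gave 0.19 in null against wild-type cells.

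Mmp9, which is typical of granulocytes and activated macrophages, had levels of 4.54, 4.28 and 4.09 in null, 4.20 and 4.49 in heterozygous and 4.28 and 4.37 in wild-type cells. Neither of its 2 probe sets rose above the 30th percentile on any array, so a level could not be told from background. In a fit without the filter its differences lay between -0.04 and 0.02, with adjusted p between 0.913 and 0.983. Of 9 granulocyte markers on the array 4 were tested and 0 called, and Mpo, Csf3r, Cxcr2 and Ltf were below the 30th percentile everywhere. Their summed linear level was 197 to 294 in null, 177 to 186 in heterozygous and 156 to 177 in wild-type cells.

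The groups did not overlap for 4 of 6 tested members in heterozygous against wild-type cells (Timp1 above, and Timp2, Timp3 and Timp4 below), where 61.3% of all genes did not overlap. For null against wild-type cells this held for 2 of 6 (Timp1 and Mmp14), against 21.7% of all genes, and for null against heterozygous cells for 3 of 6 (Timp1, Timp2 and Timp4), against 43.7%. The median log2 difference of the 6 tested members was -0.32 in heterozygous against wild-type, -0.02 in null against wild-type and 0.48 in null against heterozygous cells. Over all genes these medians were -0.04, 0.00 and 0.04.

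**Figure D4:**
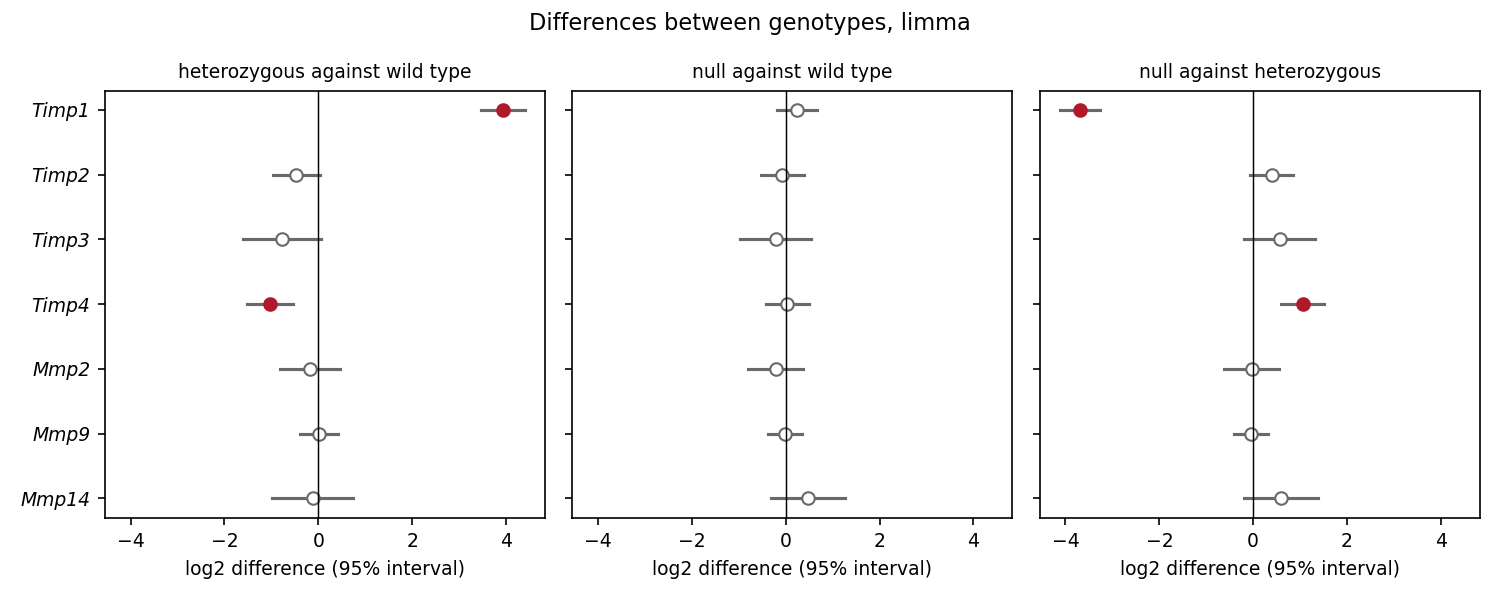
Log2 difference with its 95% interval (x axis) of 7 genes (rows) in 3 comparisons of genotypes. Filled points passed an adjusted p of 0.05 and open points did not. The filled points are Timp1 (3.93 and -3.69) and Timp4 (-1.03 and 1.06).

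The order of mean levels was heterozygous, null, wild type for Timp1, with null and wild type not told apart by the test. For Timp4 it was null, wild type, heterozygous, with null and wild type again not told apart. No neighbours in the order of Timp2, Timp3, Mmp2, Mmp9 or Mmp14 were called different.

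Genes with the pattern most like that of each tested member were ranked by Pearson correlation over the 7 arrays, a description that the 2 heterozygous arrays largely set for Timp1. The closest to Timp1 were Nme2, a nucleoside diphosphate kinase (0.995), the stress gene Gadd45g (0.994), Siva1 (0.994), Ptprc (0.993) and the myosin Myo5b (0.993). Over the null and wild-type arrays alone the correlations were 0.933, -0.006, 0.296, 0.665 and 0.434 in the same order. Like Timp1, Ptprc and Myo5b passed the filter through the heterozygous arrays alone, so a difference was built into their passing. Gadd45g had levels of 6.92, 7.11 and 6.79 in null, 10.17 and 9.85 in heterozygous and 7.17 and 6.96 in wild-type cells. For Timp4 the closest were Gpr137b (0.997) and Agbl5 (0.991), for Timp3 1600012H06Rik (0.974) and Ring1 (0.969), and for Timp2 Malat1 (0.998) and Galnt1 (0.995). Malat1 had levels of 13.82, 13.82 and 13.83 in null, 13.215 and 13.82 in heterozygous and 13.82 and 13.96 in wild-type cells. Heterozygous replicate 1 thus weighs most in its correlation, which was 0.983 over the null and wild-type arrays alone. In that value wild type replicate 2, at 13.96, weighs most. Those of Mmp2 were H2bc18 (0.951) and Trim35 (0.933), and those of Mmp14 were Ppcdc (0.990) and Sdf2 (0.977).

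The wider protease system was described with 4 lists. Of 19 other matrix metalloproteases, 15 were on the array and 6 were tested, and 0 were called in any of the 3 comparisons of genotypes with limma. The unadjusted p was under 0.05 for 0 genes in both null comparisons and for 1 in heterozygous against wild-type cells, Mmp24, a membrane-anchored enzyme of the nervous system (log2 difference 0.42, adjusted p = 0.124). Of all 9243 genes, 2766 were under 0.05 in heterozygous against wild-type cells. Mmp16, also anchored in the membrane, had a mean log2 level of 10.14 in null, 10.51 in heterozygous and 10.22 in wild-type cells. The collagenases Mmp8 and Mmp13, the stromelysins Mmp3 and Mmp11 and the macrophage elastase Mmp12 were among the 9 genes below the filter.

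Of 12 genes of the ADAM family, some of whose members shed membrane proteins, 11 were tested. Adam12 fell by 0.64 ± 0.13 (log2, SE) in heterozygous against wild-type cells (adjusted p = 0.0288), with means of 9.77 and 10.42, and by 0.77 in its other probe set. Null and heterozygous cells differed by 0.47 (adjusted p = 0.0540). The call in heterozygous cells ended without wild type replicate 1 or 2 or heterozygous replicate 1 or 2 (adjusted p 0.0692 to 0.133). The tumour necrosis factor convertase Adam17 and the Notch and cadherin sheddase Adam10 differed by -0.22 and -0.21, and did not pass. Median differences of the list were -0.21 in heterozygous against wild-type, -0.03 in null against wild-type and 0.16 in null against heterozygous cells.

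Of 18 ADAMTS proteases, which cut proteoglycans and procollagens, 5 were tested and 0 called with limma in any of the 3 comparisons. Among them the aggrecanases Adamts4 and Adamts5 had differences of 0.75 (adjusted p = 0.157) and -0.59 (adjusted p = 0.184) in heterozygous against wild-type cells. Unadjusted p was under 0.05 for Adamts4 there, for 2 of the 5 in null against heterozygous cells (Adamts1 and Adamts4) and for 0 in null against wild-type cells. Of all 9243 genes, 2766 were under 0.05 in heterozygous against wild-type and 2636 in null against heterozygous cells. With 5 genes tested, the counts do not set this list apart from other genes.

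Among 18 activators and binding partners, 11 were tested. In heterozygous against wild-type cells 2 rose and 0 fell, where 10.1% of all genes tested were called. They were Cd44, the hyaluronan receptor on which Mmp9 and Mmp14 proteins dock (5.08), and Lcn2, a lipocalin that binds Mmp9 protein (4.50). Cd44 had levels of 4.60, 6.45 and 3.96 in null, 9.88 and 10.27 in heterozygous and 6.21 and 3.79 in wild-type cells, so null and wild-type samples were widely spread. Its second probe set gave a difference of 2.25 in heterozygous against wild-type cells. Lcn2 had levels of 3.88, 3.88 and 3.60 in null, 7.29 and 9.16 in heterozygous and 3.94 and 3.51 in wild-type cells. Like Timp1, it passed the filter through the heterozygous arrays alone, so a difference was built into its passing, and its size against a dim level is uncertain. Without wild type replicate 2 both calls ended (adjusted p = 0.132 for Cd44 and 0.0770 for Lcn2), and that of Cd44 also ended without heterozygous replicate 1 (0.120) or 2 (0.0735). In null against heterozygous cells 8.96% of all genes tested were called. With 11 genes tested, the counts do not set this list apart from other genes. Cd44, Lcn2 and Cav1, the caveolin of membrane pits (-0.50 ± 0.09, adjusted p = 0.0247), were lower in null than in heterozygous cells. For Cd44 this ended without either heterozygous array, null replicate 1 or null replicate 3 (adjusted p 0.0664 to 0.138). For Cav1 it ended without any of the arrays other than null replicate 2 (adjusted p 0.0520 to 0.112).

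The membrane-anchored inhibitor Reck, which restrains several metalloproteases, differed by -0.44 in heterozygous against wild-type cells (adjusted p = 0.247). The scavenger receptor Lrp1, which clears enzymes and inhibitors from the cell surface, differed by -0.68 (adjusted p = 0.154). Furin, which cleaves the Mmp14 precursor, differed by 0.07, and Bsg, the metalloprotease inducer basigin, by 0.02. The plasminogen activator gene Plat differed by -0.19 and the urokinase receptor gene Plaur by 0.28 (adjusted p = 0.185). In null against wild-type cells limma called 0 of the 11, and the unadjusted p was under 0.05 for 2, Bsg and Cav1, and for 475 of all 9243 genes.

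**Figure D5:**
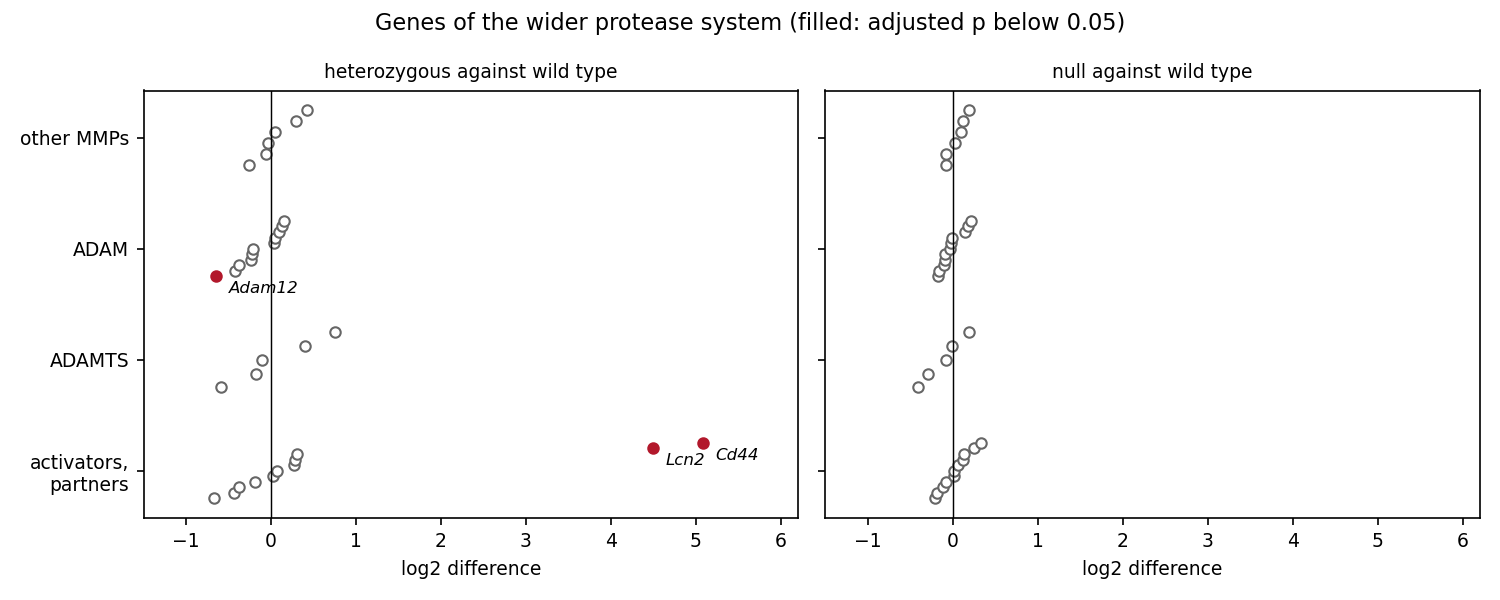
Log2 difference (x axis) of the tested genes of 4 lists (rows) in heterozygous against wild-type (left) and null against wild-type cells (right). Filled points passed an adjusted p of 0.05. On the left these are Adam12 (-0.64), Lcn2 (4.50) and Cd44 (5.08), and on the right there is none.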

How the data were processed

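Sorted tumour cells were measured on 7 arrays with 1 label, from 75 ng of total RNA each and a 3' IVT labelling kit, per the labels' protocols. The authors deposited log2 levels per probe set. RMA and Partek 6.6 are the tools in the submitters' processing notes, and the genome build of the annotation is not given in the sources used here. Because of the common distribution of the arrays, a shift of all genes in 1 direction cannot be seen. No intensity files were used.

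Of 22690 probe sets, 64 were controls, and 20380 of the other 22626 named 1 gene, 691 several and 1555 none in the platform's annotation, checked by gene ID against RefSeq. Each of 12393 genes was represented by its brightest probe set, and 9243 passed the filter. With limma 3.58.1 (R 4.3.3), each gene got a mean per genotype over the 7 arrays (4 residual degrees of freedom) and two-sided moderated tests for each pair of genotypes, an F test and Benjamini-Hochberg adjustment. Probe sets other than the brightest came from the same fit to every probe set, and Mmp9 and other genes below the filter from a fit to all named genes. The fit was tested on simulated data. Precision is limited by how few arrays there are.

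The members and lists were chosen with earlier results of these data known. Named genes are the members, called genes of the 4 protease lists, Ptprd and the genes most like each member. The uncalled list genes, Gadd45g, Rgs5, Dcn and the synapsins were named after their values were seen. Alternatives covered filters, probe sets, moderation, scaling, covariates and arrays left out.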

Additional observations from a re-analysis of the deposited data

How the results depend on the processing

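The direction of Timp1 and of Timp4 in heterozygous against wild-type and in null against heterozygous cells held under all 19 alternatives tried. Timp1 lay between 3.62 and 4.25 in the first and between -4.01 and -3.36 in the second comparison. Its calls ended without the 2 arrays of mixed sex transcripts, and for null against heterozygous cells also in an unmoderated model (adjusted p = 0.0528). The alternatives that left out arrays hold fewer samples, and for other lost calls the cause was not tested.

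Counts of called genes moved as follows. The 2 calls among the members in heterozygous against wild-type cells were 1 with only the groups compared, unmoderated and with the replicate block, and 0 without the 2 arrays with mixed transcripts. In null against heterozygous cells the 2 calls were 1 with only the groups compared and with the replicate block, and 0 unmoderated and without the 2 arrays. The 2 calls of the F test were 1 without a filter, unmoderated, with the replicate block and with the covariate (the 3' minus 5' signal of the Actb and Gapdh controls), and 0 without the 2 arrays. Leaving out each array in turn gave 1 to 3 calls in these comparisons. The ADAM call became 0 with only the groups compared, unmoderated, with the block, with the covariate and without the 2 arrays, and in null against heterozygous cells it was 1 with the filter at the 50th percentile and with a trend. The 2 calls among activators and partners became 0 with only the groups compared, unmoderated and without the 2 arrays, and 1 with the block and with the covariate. The 3 calls in null against heterozygous cells became 0 unmoderated, with the block and without the 2 arrays. Leaving out an array gave 0 to 1 call for ADAM and ADAMTS genes in heterozygous against wild-type cells, 0 to 2 for activators and partners there and 1 to 3 in null against heterozygous cells.

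Over all genes, the 938 calls in heterozygous against wild-type cells (388 higher) were 172 with only the groups compared (99 higher), 97 unmoderated (46 higher), 217 with the replicate block (109 higher), 372 with the covariate (186 higher), 33 to 802 with an array left out and 0 without the 2 arrays (1802 at an unadjusted limma p under 0.05). In null against heterozygous cells 828 became 355, 2, 25, 471, 90 to 732 and 0 in the same order (1426 unadjusted). The 522 of the F test became 21 unmoderated, 29 with the block, 217 with the covariate, 34 to 470 with an array left out and 0 without the 2 arrays. In null against wild-type cells 0 became 1 unmoderated and with the mean of probe sets, and 0 to 1 with an array left out.

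Differences that changed sign were not called before or after. Timp2 in null against wild-type cells was 0.0347 with the mean of its probe sets, and -0.15 to 0.0106 with an array left out. Timp4 there was -0.11 with the replicate block, -0.0244 with the covariate, 0.00 (-0.0032) without the 2 arrays and -0.11 to 0.21 with an array left out, and Timp3 was -0.43 to 0.14. Mmp2 in heterozygous against wild-type cells was 0.046 without the 2 arrays and -0.53 to 0.17 with an array left out. It was -0.56 to 0.13 in null against wild-type cells and, in null against heterozygous cells, 0.0322 with the block and -0.26 to 0.19 with an array left out. Mmp14 in heterozygous against wild-type cells was 0.38 without the 2 arrays and -0.62 to 0.38 with an array left out.

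Whether equal replicate numbers across groups mark pairs could not be settled. Deviations from the group means correlated at 0.11 for heterozygous and wild-type arrays of the same number. For null and wild-type arrays they correlated at -0.18 and -0.41, and for null and heterozygous arrays at 0.02 and -0.19. In a group of 2 arrays the deviations mirror each other, so the heterozygous and wild-type arrays give a single value.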
